A study of Mus musculus with 4 samples.

Results

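The enzymes that write and erase histone methylation and that remove histone acetylation were followed in mouse acute myeloid leukemia cells that differ in the Tet2 label. Members were the entries of the deposited table whose symbols name a lysine demethylase (Kdm), a lysine methyltransferase (Kmt, Setd, Suv39h, Ehmt, Ezh), an arginine methyltransferase (Prmt), a histone deacetylase (Hdac) or a sirtuin (Sirt), with Kdm5d left out. The rule found 68 of 24589 entries, in 13 enzyme classes. One of them, Setdb2-phf11c, is named for both Setdb2 and its neighbour, and reads can have been divided between it and Setdb2, so both values are uncertain.

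All 4 libraries came from cultured NRAS/AE9a leukemic cells, which were established from bone marrow hematopoietic stem cells and carry NRAS and AE9a, a truncated AML1-ETO fusion that drives acute myeloid leukemia. WT libraries (n = 2) had wildtype donors. Tet2 KO libraries (n = 2) had Tet2-/- donors without exons 8 to 10. Cells of both groups grew with SCF (50 ng/ml), IL-3 and IL-6 (each at 10 ng/ml), in RPMI 1640 with puromycin (2 µg/ml) and G418 (1 mg/ml). The labels give neither the number of mice nor whether replicates were separate cultures, so every p rests on library-to-library variation alone, possibly of a technical kind. Levels are in TPM, a transcript abundance corrected for transcript length and scaled to the same total in every library. Read depth is unknown.

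Histone methyltransferases transfer a methyl group from S-adenosylmethionine to lysine or arginine. Methylation of H3K4 marks active promoters and enhancers, whereas methylation of H3K9 and H3K27 marks silent chromatin. Demethylases of the LSD type use FAD, and those of the JmjC type are iron- and 2-oxoglutarate-dependent dioxygenases, the enzyme superfamily that also holds TET2, which oxidises 5-methylcytosine in DNA. Deacetylases of the HDAC classes use zinc, sirtuins use NAD, and AML1-ETO is known to recruit HDAC-containing corepressor complexes in leukemia.

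Because TET2 acts on methylated CpG dinucleotides, the CpG content of the members' start sites is shown first. RefSeq sequence (GRCm38.p6) was matched by symbol for 56 of 68 members, and the 250 bases before 1 start site per gene were read. These windows held a median of 17 CpG (0 to 56), against a median of 10 over 16519 protein-coding genes. That set, also used for the motifs and ranks below, was not limited to genes detected in these cells. Expression level was therefore not matched. The letters GGGCGG, the GC box of SP factors, were found on either strand in 64.3% of member windows and 44.3% of all windows. CCGGAA, an ETS core, was found in 25.0% and 15.8%, TGTGGT, a RUNX core, in 16.1% and 12.3%, and the E-box CACGTG in 8.93% and 6.73%. All of these motifs but the RUNX core contain CpG themselves, and no methylation was measured here. The 3 windows below belong to the called members (defined with the tests) whose window, the same as that counted above, overlaps no annotated exon. An annotated protein-coding start also had to lie within 50 bases of the window's start site. The windows of the called Setd5 (0 CpG, with TGTGGT) and Setd7 (17 CpG) had no such start and are not shown. The 3 windows are printed from the base farthest upstream to the start, with each CpG in capitals.
Ezh1 (chr11:101226464-101226713, minus strand): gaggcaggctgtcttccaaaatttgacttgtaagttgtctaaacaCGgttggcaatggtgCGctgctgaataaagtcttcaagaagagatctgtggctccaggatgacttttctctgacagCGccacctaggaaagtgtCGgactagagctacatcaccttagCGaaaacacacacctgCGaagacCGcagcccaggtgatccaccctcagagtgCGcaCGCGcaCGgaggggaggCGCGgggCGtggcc
Kmt2c (chr5:25498784-25499033, minus strand): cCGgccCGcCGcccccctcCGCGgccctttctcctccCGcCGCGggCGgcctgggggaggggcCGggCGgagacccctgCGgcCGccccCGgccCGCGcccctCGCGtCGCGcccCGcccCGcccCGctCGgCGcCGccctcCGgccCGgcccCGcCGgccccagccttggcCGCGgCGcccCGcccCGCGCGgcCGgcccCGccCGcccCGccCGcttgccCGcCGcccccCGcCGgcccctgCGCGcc
Kdm1a (chr4:136602724-136602973, minus strand): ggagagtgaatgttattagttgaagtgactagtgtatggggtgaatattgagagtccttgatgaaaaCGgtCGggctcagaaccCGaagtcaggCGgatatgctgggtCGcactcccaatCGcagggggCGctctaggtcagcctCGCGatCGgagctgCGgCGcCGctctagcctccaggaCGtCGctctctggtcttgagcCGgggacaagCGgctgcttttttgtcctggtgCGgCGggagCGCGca
The Ezh1 window held 14 CpG, as many as or more than 61.8% of all windows. Kdm1a had 21 (80.3%) and Kmt2c had 48 (99.8%). Of the 4 motifs searched, GGGCGG in the Kmt2c window was the only match in the 3 printed windows. The Hdac7 window, not printed, held 25 CpG, with both GGGCGG and CCGGAA.

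A gene was kept for testing when it reached 1 TPM in at least 2 libraries, which 64 of the 68 members did. The other 4 stayed under 1 TPM in every library. They were Hdac9, at 0.55 and 0.60 TPM in WT and 0.78 and 0.75 in Tet2 KO, Hdac11 at 0.29 and 0.60 against 0.79 and 0.80, Kdm4d at 0.15 and 0.07 against 0.18 and 0.13, and the brain-enriched Prmt8 at 0.03 and 0.03 against 0.04 and 0.07. Kept members had a median level of 29.8 TPM over the 4 libraries, against 22.1 TPM for all kept genes. Of them 53 averaged at least 10 TPM, and 3 averaged at least 100. Those 3 were Kmt5a, Prmt1 and Hdac1. The members' summed share of the TPM was 0.244% and 0.253% for WT and 0.265% for each Tet2 KO library. The plot of all levels shows the classes side by side.

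**Figure D1:**
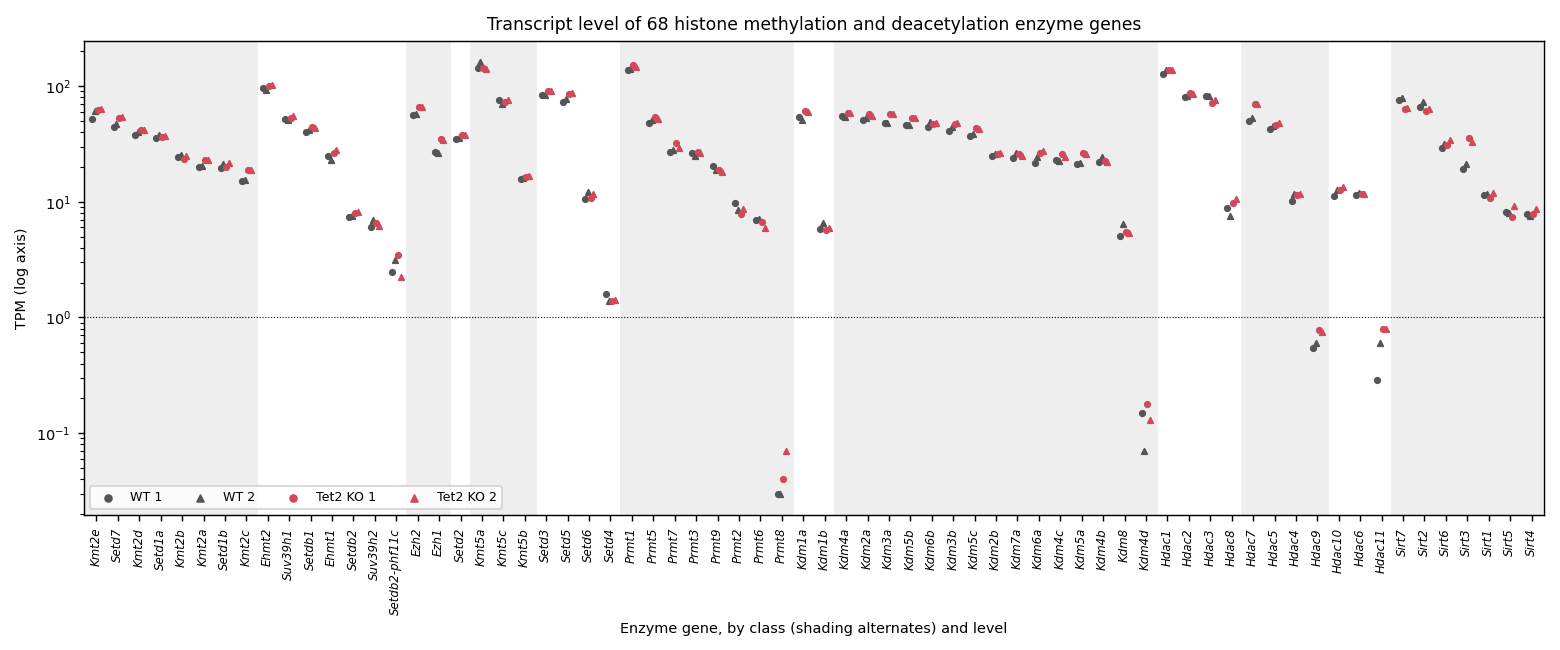
TPM (log axis) of all 68 enzyme genes in each of the 4 libraries, ordered by class and by level, with the dotted line at 1 TPM. Hdac9, Hdac11, Kdm4d and Prmt8 lie below the line in every library, and most genes differ far more from each other than between the groups.

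Between the groups most of these enzymes moved little. Of the 64 kept members, 13 were higher and 2 lower in Tet2 KO (limma on log2(TPM + 1), adjusted p under 0.05 over all genes), and 49 did not pass. That is 23.4% of kept members, against 30.5% of all 11837 kept genes. The members called higher were 20.3% against 18.9% of all genes, and those called lower 3.13% against 11.6%. The median log2 change was 0.09 for kept members and 0.04 for all kept genes. Of the 15 called members 9 changed by less than 1.2-fold, and only Sirt3 passed 1.5-fold among kept members. Both Tet2 KO libraries lay above both WT libraries for 35 members (54.7%, against 42.2% of all kept genes) and below for 4 (6.25%, against 26.5%), while the groups overlapped for 25.

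How many enzymes were called depended on the scale. TPM share a fixed total, and the ERCC spike-in entries took 2.98% and 3.30% of it in WT and 3.41% and 3.39% in Tet2 KO. Rn45s, an entry for ribosomal RNA precursor, had 5704.44 and 4349.92 TPM in WT and 14263.36 and 8813.47 in Tet2 KO. What that difference reflects was not tested, and 1 alternative rescaled the TPM without the spike-ins and Rn45s. Every library was then scaled to its spike-in total (the spike-in scale). There 2 members were higher and 3 lower (against 5.33% and 12.5% of all genes), and the median of all genes moved from 0.04 to -0.07. The spike-in share differed more between the WT libraries than between the Tet2 KO libraries, so this scale also moves the WT libraries against each other. A call lost on it does not show that a gene stayed the same. With the trend against transcript length and GC content removed, 8 were higher and 3 lower (against 15.3% and 13.4% of all genes). Without Tet2 KO replicate 1, 3 members were called in all (10.6% of all genes), and without replicate 2, 4 were (11.0%). The calls of Sirt3, Hdac7, Sirt7 and Hdac3 held under all 5 scaling and trend alternatives, and those of Sirt3 and Hdac7 also without each library in turn.

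**Figure D2:**
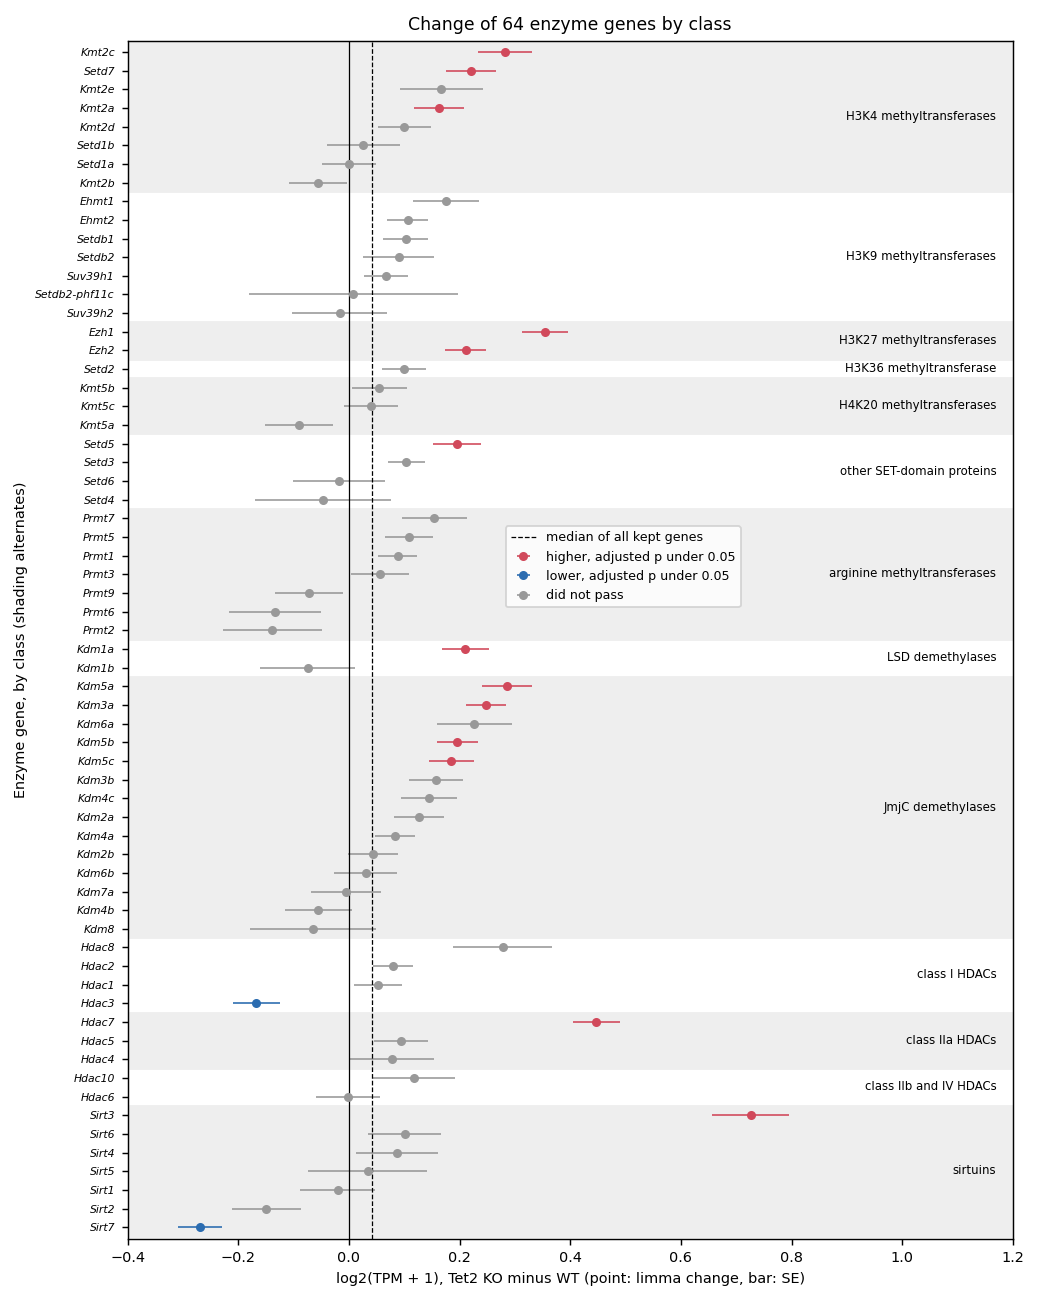
log2 change (Tet2 KO minus WT, limma, bars are SE) of the 64 kept enzyme genes by class, coloured by the call, with the dashed line at the median of all kept genes, 0.04. Sirt3 lies farthest to the right at 0.73 and Sirt7 farthest to the left at -0.27.

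Both H3K27 methyltransferases, the catalytic subunits of the silencing complex PRC2, were called higher in Tet2 KO, against 18.9% of all kept genes. Ezh1, the form typical of resting cells, had 26.93 and 26.55 TPM in WT and 34.84 and 34.09 in Tet2 KO. The groups lay apart by more than the spread within either, and the log2 change was 0.35 (SE 0.042, adjusted p = 0.0036). Ezh2, the form typical of dividing cells, had 56.31 and 57.86 TPM against 65.90 and 66.58. Its change was smaller at 0.21 (SE 0.037, adjusted p = 0.012). The ratio of Ezh2 to Ezh1 TPM, which a factor common to all genes of a library does not alter, was 2.09 and 2.18 in WT and 1.89 and 1.95 in Tet2 KO. Scaled to the spike-ins, neither passed (0.24, adjusted p = 0.073 for Ezh1 and 0.10, adjusted p = 0.39 for Ezh2). Without either Tet2 KO library Ezh2 did not pass, whereas Ezh1 did. Ezh1 lies on chr11:101191115-101226463 and Ezh2 on chr6:47530139-47595341 (GRCm38, both on the minus strand).

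The H3K27 demethylases did not pass. Kdm6a (UTX) had 21.52 and 24.25 TPM in WT and 26.47 and 27.35 in Tet2 KO, groups that did not overlap, with a log2 change of 0.23 (SE 0.067, adjusted p = 0.054). It passed when the TPM were rescaled without spike-ins and Rn45s (adjusted p = 0.047) and without WT replicate 2 (0.31, adjusted p = 0.020). Kdm6b (JMJD3), an inflammation-induced enzyme, had 43.92 and 48.55 TPM against 46.83 and 47.55, so its groups overlapped. The Kdm6b to Kdm6a ratio was 2.04 and 2.00 in WT and 1.77 and 1.74 in Tet2 KO.

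Of 8 H3K4 methyltransferases or relatives, 3 were higher, 0 lower and 5 did not pass (0 of 8 were called on the spike-in scale). Over all kept genes 18.9% were called higher and 11.6% lower (5.33% and 12.5% on the spike-in scale). The class median was 0.13, and 0.02 on the spike-in scale. Kmt2c (MLL3), which methylates H3K4 at enhancers, had 15.25 and 15.40 TPM in WT and 18.69 and 18.99 in Tet2 KO (log2 change 0.28, SE 0.049, adjusted p = 0.012). Setd7, a lysine methyltransferase with many non-histone substrates, had 44.33 and 47.25 TPM against 53.48 and 53.53 (0.22, SE 0.045, adjusted p = 0.019). Kmt2a (MLL1), the HOX gene regulator rearranged in leukemia, had 20.07 and 20.50 TPM against 22.86 and 22.79. Its change was 0.16 (SE 0.046, adjusted p = 0.047), a call lost without each library in turn (adjusted p from 0.076 to 0.19) and with trimmed-mean (0.092), quantile (0.087) and spike-in scaling (0.68). With the length and GC trend removed none of the 3 passed (adjusted p = 0.081 for Kmt2c, 0.059 for Setd7 and 0.58 for Kmt2a), and without either Tet2 KO library Kmt2c and Setd7 did not pass (adjusted p from 0.072 to 0.11).

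The other 5 genes of this class of H3K4 methyltransferases or relatives did not pass. Kmt2e (MLL5), the most abundant by TPM, had 51.93 and 60.39 in WT and 62.03 and 64.00 in Tet2 KO (log2 change 0.17, SE 0.075, adjusted p = 0.15). Its WT libraries differed widely, and it passed only without WT replicate 2 (0.27, adjusted p = 0.015). Kmt2d (MLL4) had 37.55 and 40.16 TPM against 41.48 and 41.92. Setd1a, the core of a promoter-bound complex, had 35.26 and 37.65 TPM against 36.13 and 36.76, Setd1b had 19.70 and 21.23 against 19.97 and 21.76, and Kmt2b (MLL2) had 24.54 and 25.51 against 23.30 and 24.77. For these last 3 the groups overlapped, and most of the Setd1a exons are shared with the annotated same-strand gene Gm49388, so its value is uncertain. Within libraries, Kmt2a relative to its paralog Kmt2b was 0.82 and 0.80 in WT and 0.98 and 0.92 in Tet2 KO, and Kmt2c relative to Kmt2d was 0.41 and 0.38 against 0.45 and 0.45.

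All 3 KDM5 genes among the members, which demethylate trimethylated H3K4, were called higher, against 18.9% of all kept genes. Kdm5d had been left out. None was called on the spike-in scale (adjusted p = 0.16, 0.48 and 0.54 for Kdm5a, Kdm5b and Kdm5c) or without either Tet2 KO library. The Kdm5c call was also lost without WT replicate 1. Kdm5a had 21.08 and 21.51 TPM in WT and 26.38 and 25.96 in Tet2 KO (log2 change 0.29, SE 0.045, adjusted p = 0.0086). Kdm5b had 45.70 and 46.44 TPM against 52.90 and 52.95 (0.20, SE 0.037, adjusted p = 0.015). Kdm5c had 37.20 and 38.32 TPM against 43.40 and 42.70 (0.18, SE 0.041, adjusted p = 0.023). The ratio of Kdm5b to Kdm5c overlapped between the groups, from 1.21 to 1.24 over the 4 libraries. With the length and GC trend removed Kdm5c passed (adjusted p = 0.033), while Kdm5a and Kdm5b did not (adjusted p = 0.076 and 0.15). Kdm5a shares 251 of its 14158 annotated exonic bases with Ccdc77 on the opposite strand, which had 16.17 and 16.20 TPM against 18.91 and 18.23.

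Kdm1a (LSD1), the demethylase of mono- and dimethylated H3K4 that is a drug target in acute myeloid leukemia, had 53.64 and 51.01 TPM in WT and 61.45 and 59.92 in Tet2 KO. The groups did not overlap, and the log2 change was 0.21 (SE 0.043, adjusted p = 0.018). The call was lost with trimmed-mean scaling (0.17, adjusted p = 0.051), on the spike-in scale (0.10, adjusted p = 0.48) and without either Tet2 KO library. Its paralog Kdm1b (LSD2) was far less abundant, at 5.83 and 6.58 TPM against 5.69 and 5.98. The Kdm1b to Kdm1a ratio was 0.109 and 0.129 in WT and 0.0926 and 0.0998 in Tet2 KO.

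Among 15 JmjC demethylases 14 were kept, of which 4 were higher, 0 lower and 10 did not pass. Over all kept genes 18.9% were called higher and 11.6% lower. The class median was 0.14 (0.02 on the spike-in scale, where 0 of the class were called). Besides the KDM5 genes the call was for Kdm3a, an H3K9 demethylase that is also induced by hypoxia. Kdm3a had 48.26 and 48.21 TPM in WT and 57.28 and 57.63 in Tet2 KO. It had the smallest p of the class, with a log2 change of 0.25 (SE 0.036, adjusted p = 0.0067), but did not pass on the spike-in scale (0.13, adjusted p = 0.27) or without Tet2 KO replicate 1 (adjusted p = 0.063) or 2 (adjusted p = 0.065). Its paralog Kdm3b had 40.90 and 43.93 TPM against 46.87 and 47.89 and did not pass (0.16, adjusted p = 0.062), though it did without WT replicate 2 (0.21, adjusted p = 0.032) and when rescaled without spike-ins and Rn45s (adjusted p = 0.049).

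The H3K36 and H3K9 demethylases of the KDM2 and KDM4 families did not pass. Kdm4a, the most abundant gene of the class, had 55.29 and 54.50 TPM in WT and 58.51 and 57.96 in Tet2 KO (log2 change 0.08, adjusted p = 0.14). Kdm4b had 22.14 and 24.39 TPM against 22.49 and 22.17, and Kdm4c had 22.77 and 22.49 against 25.91 and 24.38. Kdm2a had 50.61 and 52.99 TPM against 57.88 and 55.38, and Kdm2b had 24.93 and 25.89 against 26.01 and 26.42. Of these 5 genes only Kdm4b had overlapping groups. Across all kept genes, groups lay apart with Tet2 KO higher for 42.2% and lower for 26.5%. Kdm7a had 24.07 and 26.66 TPM against 25.80 and 24.71 and was called lower only with the length and GC trend removed (-0.17, adjusted p = 0.046). Kdm8, the least abundant kept gene of the class, had 5.06 and 6.43 against 5.46 and 5.37.

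None of the methyltransferases of the repressive H3K9 mark passed. Of 7 kept members of the class 0 were called, with a median of 0.09 (-0.01 on the spike-in scale). Ehmt2 (G9a), the most abundant, had 95.73 and 92.32 TPM in WT and 100.14 and 102.39 in Tet2 KO (log2 change 0.11, SE 0.037, adjusted p = 0.083). Its partner Ehmt1 (GLP) had 25.11 and 23.15 TPM against 26.59 and 28.18. Setdb1, which silences endogenous retroviruses, had 40.13 and 41.65 TPM against 44.14 and 43.82 (0.10, adjusted p = 0.11). Suv39h1, of constitutive heterochromatin, had 51.80 and 50.85 TPM against 52.91 and 54.72. Its paralog Suv39h2 had 6.10 and 6.91 TPM against 6.62 and 6.20, Setdb2 had 7.45 and 7.53 against 7.93 and 8.14, and Setdb2-phf11c had 2.47 and 3.13 against 3.50 and 2.22. The groups lay apart, higher in Tet2 KO, for 5 of the 7, with the Suv39h2 and Setdb2-phf11c values overlapping. Of all kept genes, 42.2% lay apart and higher and 26.5% apart and lower.

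Setd2, the main enzyme of H3K36 trimethylation, had 34.91 and 35.63 TPM in WT and 38.07 and 37.68 in Tet2 KO (log2 change 0.10, adjusted p = 0.12, and -0.01 on the spike-in scale). None of the 3 H4K20 methyltransferases was called. Kmt5a, which monomethylates H4K20 in dividing cells and had the highest TPM of all members, stood at 142.68 and 160.55 in WT and 144.64 and 139.57 in Tet2 KO, overlapping values with a change of -0.09 (adjusted p = 0.31, and 0.041 without WT replicate 1, with a change of -0.18). Kmt5b had 15.72 and 16.11 TPM against 16.50 and 16.64, and Kmt5c had 75.47 and 70.06 against 73.41 and 76.14.

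Of 4 other SET-domain genes, only Setd5 was called. Setd5, a chromatin regulator whose own catalytic activity is debated, had 73.35 and 77.91 TPM in WT and 86.01 and 87.39 in Tet2 KO (log2 change 0.20, SE 0.043, adjusted p = 0.023, and 0.08, adjusted p = 0.46 on the spike-in scale). Leaving out WT replicate 1 (adjusted p = 0.055) or either Tet2 KO library ended that call. Setd3, the actin histidine methyltransferase, had 84.38 and 83.00 TPM against 90.14 and 89.85 (0.10, adjusted p = 0.068). Setd6 had 10.63 and 12.15 TPM against 10.80 and 11.64, and Setd4 had 1.59 and 1.40 against 1.40 and 1.43.

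Arginine methyltransferases were not called in either direction, 0 of 7 kept, with a class median of 0.06 (-0.06 on the spike-in scale). Prmt1, the main asymmetric arginine methyltransferase and known to bind AML1-ETO, had 138.85 and 140.36 TPM in WT and 151.21 and 145.78 in Tet2 KO (log2 change 0.09, SE 0.035, adjusted p = 0.11). Prmt5, the main symmetric enzyme, had 48.37 and 50.46 TPM against 54.37 and 52.32 (0.11, adjusted p = 0.12). The Prmt1 to Prmt5 ratio stayed between 2.78 and 2.87 in all 4 libraries. Prmt7 had 26.86 and 27.85 TPM against 32.04 and 29.14, Prmt3 had 26.43 and 24.74 against 27.11 and 26.17, and Prmt9 had 20.32 and 18.71 against 18.98 and 18.03. Prmt6 had 6.94 and 7.10 TPM against 6.72 and 5.92, the only gene of the class with both Tet2 KO values below WT, and Prmt2 had 9.77 and 8.48 against 7.80 and 8.58.

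**Figure D3:**
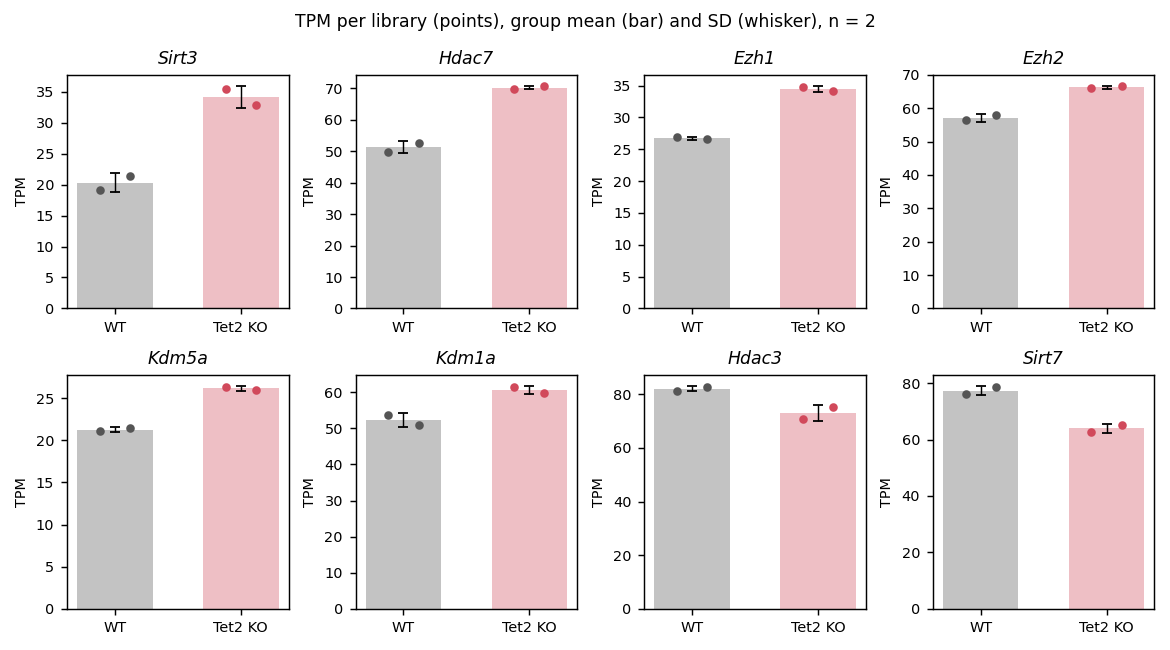
TPM of 8 called enzyme genes in each library (points), with group means (bars from 0) and SD (whiskers, n = 2). Both Tet2 KO points lie above both WT points for Sirt3, Hdac7, Ezh1, Ezh2, Kdm5a and Kdm1a, and below them for Hdac3 and Sirt7.

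Deacetylases went in different directions. Hdac7, a class IIa deacetylase that shuttles between nucleus and cytoplasm and has roles in lymphoid and vascular cells, had 49.88 and 52.68 TPM in WT and 69.83 and 70.66 in Tet2 KO. Group means were 51.3 ± 1.98 and 70.2 ± 0.59 (SD, n = 2), a 1.37-fold difference that is 0.45 on the log2 scale (SE 0.042, adjusted p = 0.0019). On the spike-in scale the change was 0.33 (adjusted p = 0.013). The gene lies on chr15:97792664-97844502, minus strand, and shares 29 of 6755 exonic bases with Slc48a1 on the opposite strand, itself at 106.65 and 114.51 TPM against 130.85 and 133.29. The related Hdac5 had 42.99 and 45.39 TPM against 46.07 and 48.40, and Hdac4 had 10.17 and 11.62 against 11.41 and 11.64. Hdac5 relative to Hdac7 was 0.86 in each WT library and 0.66 and 0.69 in Tet2 KO.

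Of the 4 class I deacetylases, the nuclear enzymes of the large corepressor complexes, 1 was lower and 3 did not pass. Hdac3, the catalytic subunit of the NCoR and SMRT complexes, had 81.35 and 82.79 TPM in WT and 70.83 and 75.17 in Tet2 KO. The log2 change was -0.17 (SE 0.043, adjusted p = 0.036), and -0.28 on the spike-in scale (adjusted p = 0.0375). Leaving out any 1 library ended the Hdac3 call (adjusted p from 0.071 to 0.20), as did testing without the filter (adjusted p = 0.064) or without the variance trend (adjusted p = 0.084). Hdac1 had 128.46 and 137.65 TPM against 138.99 and 137.01, overlapping values (0.05, adjusted p = 0.40), and Hdac2 had 80.91 and 82.54 against 87.59 and 85.18. The ratio of Hdac2 to Hdac1 ranged from 0.60 to 0.63 with no separation of the groups. Hdac8 had 8.86 and 7.61 TPM against 9.77 and 10.59 and did not pass (0.28, adjusted p = 0.068), though it did without WT replicate 1 (adjusted p = 0.045). In class IIb, Hdac10, a polyamine deacetylase, had 11.22 and 12.56 TPM against 12.55 and 13.39 (0.12, adjusted p = 0.28), and the tubulin deacetylase Hdac6 had 11.41 and 11.94 against 11.65 and 11.67.

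Sirtuins held both the largest rise and the largest fall of all kept members. Sirt3, the main deacetylase of the mitochondrial matrix, had 19.18 and 21.35 TPM in WT and 35.44 and 32.87 in Tet2 KO. Group means were 20.3 ± 1.53 and 34.2 ± 1.82 (SD, n = 2), a 1.69-fold difference that is 0.73 on the log2 scale (SE 0.069, adjusted p = 0.0019). On the spike-in scale the change was 0.61 (adjusted p = 0.00087). Sirt3 lies on chr7:140863666-140882309, minus strand. Of its 5973 exonic bases, 342 overlap Psmd13 and 418 overlap Ric8a, both on the opposite strand. Since the strand setting of the counting is not given, reads from those stretches cannot be told apart. Psmd13 itself had 107.25 and 98.41 TPM in WT and 91.58 and 90.69 in Tet2 KO, and Ric8a had 49.43 and 48.09 against 52.34 and 52.48.

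Sirt7, a nucleolar sirtuin that acts on H3K18 acetylation and RNA polymerase I, had 76.16 and 78.53 TPM in WT and 62.87 and 65.14 in Tet2 KO. Group means were 77.3 ± 1.68 and 64.0 ± 1.61 (SD, n = 2), and the log2 change was -0.27 (SE 0.039, adjusted p = 0.0068), or -0.38 on the spike-in scale (adjusted p = 0.0084). The Sirt7 call was lost only without Tet2 KO replicate 1 among the libraries left out (-0.24, adjusted p = 0.068). The gene lies on chr11:120618372-120625240, minus strand, and shares 124 of 5148 exonic bases with Mafg, which lies on the same strand and had 78.72 and 75.07 TPM in WT and 74.19 and 74.43 in Tet2 KO.

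The other 5 sirtuins did not pass. Sirt2, the cytoplasmic tubulin deacetylase, had 65.56 and 72.87 TPM in WT and 60.52 and 64.00 in Tet2 KO, groups that did not overlap (adjusted p = 0.12), and it was called lower with trimmed-mean scaling (adjusted p = 0.045), on the spike-in scale (adjusted p = 0.035) and without WT replicate 1 (adjusted p = 0.042). Sirt1, the nuclear sirtuin that deacetylates p53 and histones, had 11.45 and 11.66 TPM against 10.85 and 11.93 (log2 change -0.02, adjusted p = 0.84). Sirt6, an H3K9 deacetylase, had 29.25 and 31.65 TPM against 31.13 and 34.34. The mitochondrial Sirt4 had 7.90 and 7.52 TPM against 7.90 and 8.61, and Sirt5, which removes succinyl groups, had 8.15 and 7.94 against 7.37 and 9.24. The summed TPM of the 7 sirtuins overlapped between the groups, at 217.65 and 231.52 in WT and 216.08 and 226.13 in Tet2 KO, so the class total hid the opposite changes of Sirt3 and Sirt7.

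On the deposited scale, the summed TPM of the classes lay apart between the groups, higher in Tet2 KO, for the H3K4, H3K9, H3K27 and H3K36 methyltransferases, the other SET-domain genes, the arginine methyltransferases, both demethylase classes and the class IIa deacetylases. Single genes lay apart and higher for 42.2% of all kept genes. Class sums were not formed on the spike-in scale. Median log2 changes there were 0.02 for JmjC demethylases, -0.01 for H3K9 and 0.17 for H3K27 methyltransferases. JmjC demethylases summed to 463.60 and 484.63 TPM in WT and 522.37 and 518.55 in Tet2 KO. H3K27 methyltransferases summed to 83.24 and 84.41 TPM against 100.74 and 100.67, and class IIa deacetylases, where Hdac7 made up most of the difference, to 103.59 and 110.29 against 128.09 and 131.45. Sums of the class I deacetylases (299.58 and 310.59 against 307.18 and 307.95 TPM) and of the H4K20 methyltransferases (233.87 and 246.72 against 234.55 and 232.35 TPM) overlapped between the groups, as did those of the class IIb and IV deacetylases and the sirtuins.

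**Figure D4:**
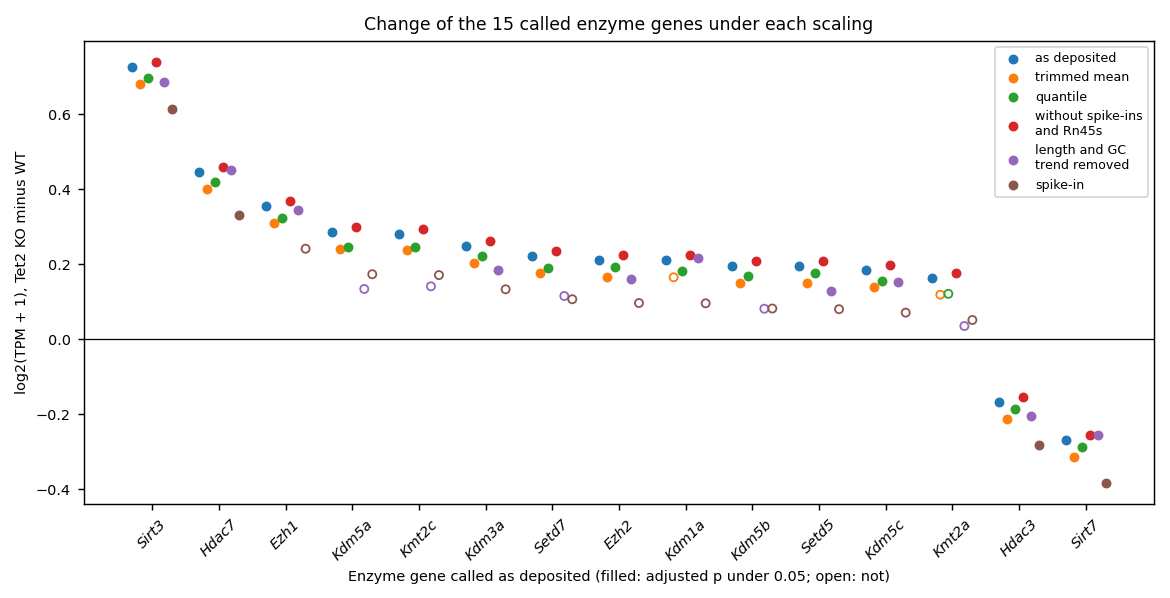
log2 change (Tet2 KO minus WT) of the 15 called enzyme genes with the deposited scale and 5 alternatives, filled where the adjusted p is under 0.05. On the spike-in scale only Sirt3, Hdac7, Hdac3 and Sirt7 are filled, and no gene changes sign.

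Partners and related enzymes were counted by list, against 18.9% of all kept genes called higher and 11.6% called lower, with no test of any list. Of 13 kept shared subunits of the H3K4 methyltransferase complexes, 2 were higher and 0 lower. Psip1 (LEDGF, which tethers MLL1 to chromatin) changed by 0.18 (adjusted p = 0.026) and the scaffold Wdr5 by 0.13 (adjusted p = 0.045). Of 9 PRC2 partners, 1 was higher and 1 lower, Mtf2 at 0.19 (adjusted p = 0.044) and Jarid2 at -0.21 (adjusted p = 0.029), both accessory subunits that guide PRC2 to its sites. Of 13 histone methyltransferases with other names, 2 were higher and 0 lower, Smyd3 at 0.46 (adjusted p = 0.024) and the H3K36 enzyme Whsc1 (NSD2) at 0.19 (adjusted p = 0.0374). Of 5 further JmjC genes 0 were called.

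Of 37 kept scaffolds and subunits of the SIN3, NuRD, CoREST, NCoR and MiDAC deacetylase complexes, 10 were higher, 5 lower and 22 did not pass, so 40.5% were called, against 30.5% of all kept genes. The NuRD remodeller Chd3 had 41.96 and 42.17 TPM in WT and 57.77 and 59.00 in Tet2 KO (log2 change 0.46, SE 0.038, adjusted p = 0.0012). The NuRD subunit Mta3 had 30.38 and 29.69 TPM against 38.07 and 37.37 (0.32, adjusted p = 0.0048), and did not pass on the spike-in scale (0.21, adjusted p = 0.12). The 5 lower genes, named after their values were seen, were lower on both scales. They were the NuRD subunits Mbd2 (-0.17, adjusted p = 0.0374) and Mbd3 (-0.15, adjusted p = 0.025), the CoREST-associated Hmg20b (-0.24, adjusted p = 0.011), the NCoR subunit Gps2 (-0.26, adjusted p = 0.019) and the SIN3-associated Brms1 (-0.20, adjusted p = 0.023). Of 12 histone acetyltransferases, the enzymes opposing the deacetylases, 3 were higher and 0 lower, among them Kat6a (0.16, adjusted p = 0.040) and Kat7 (0.14, adjusted p = 0.041). Of 12 HP1 proteins and H3K9 methyltransferase partners, 2 were higher and 0 lower, the SETDB1 cofactor Atf7ip (0.25, adjusted p = 0.0087) and HP1 alpha, encoded by Cbx5 (0.21, adjusted p = 0.013).

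Of 6 PRMT cofactors 0 were higher and 2 lower, Btg2 (-0.32, adjusted p = 0.0090) and Coprs (-0.42, adjusted p = 0.031). Of 11 kept enzymes of NAD and S-adenosylmethionine supply, 5 were higher (45.5%) and 0 lower. Over all kept genes 18.9% were called higher and 11.6% lower. Ahcy, which clears the product inhibitor S-adenosylhomocysteine, had 54.41 and 56.79 TPM in WT and 77.39 and 70.78 in Tet2 KO (0.41, SE 0.055, adjusted p = 0.0053). Nmnat3, an NAD-synthesising enzyme linked to mitochondria, had 6.89 and 6.96 TPM against 9.73 and 9.82 (0.44, SE 0.062, adjusted p = 0.0061). On the spike-in scale 1 gene of the deacetylase complex list was higher and 5 lower, and 2 of the cosubstrate list were higher. Jarid2, Btg2 and Coprs were the only other called genes of these lists. Over all kept genes 5.33% were higher and 12.5% lower on that scale. Each list's median change lay between -0.01 and 0.12, against 0.04 for all kept genes.

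The libraries also differed in the makeup of myeloid markers. For comparison, 18.9% of all kept genes were called higher and 11.6% lower. All 12 granulocyte maturation markers were lower in Tet2 KO, with sums of 47531 and 46892 TPM in WT and 23880 and 24180 in Tet2 KO. Of 12 monocyte, macrophage and dendritic markers 9 were lower and 2 higher, summing to 4126 and 4250 TPM against 3031 and 3009. Of 10 markers of myeloid progenitors and leukemia cells 9 were kept, of which 5 were higher and 2 lower, summing to 2066 and 2153 TPM against 2327 and 2365. Mpo was the largest part of that sum, at 730.73 and 757.54 TPM against 989.75 and 1037.06. Spi1 (235.18 and 239.81 against 200.12 and 195.55) and Itgam (435.69 and 462.67 against 344.7 and 341.25) went the other way. The sum therefore does not stand for every marker of the list. Mpo and Ptprc, which mark myeloid and blood cells, were present throughout (at least 731 and 182 TPM). Of 8 lymphoid markers 1 was kept and higher, Nkg7, at 38.23 and 37.08 TPM against 60.57 and 56.90, with Cd3e and Ms4a1 listed at 0 in all libraries. Of 8 erythroid markers 2 were kept and 1 was higher, with sums of 142 and 136 TPM against 211 and 234, mostly Hbb-bt (136.29 and 129.13 against 201.76 and 215.53), and with Hbb-bs listed at 0. Of 10 mast cell, basophil and eosinophil markers 8 were kept, of which 6 were lower and 1 higher, summing to 1907 and 1983 TPM against 2076 and 2008. Cpa3 made up most of that sum, at 1302.47 and 1365.86 TPM against 1667.04 and 1606.36, so the sum does not follow the lower markers. Of 6 stromal and endothelial markers 1 was kept and lower, Pecam1, which blood cells also express. The part of these shifts in the enzyme changes was not tested, and in bulk RNA fewer cells of a type and less RNA per cell cannot be told apart. Tet2 transcript itself was higher in Tet2 KO, at 35.05 and 39.95 TPM against 53.53 and 52.79, and a value for the whole gene cannot check a deletion of 3 exons.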

How the data were processed

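RNA was extracted from cultured leukemic cells and made into stranded mRNA libraries, per the labels' protocols. The authors deposited TPM values for 4 libraries (2 WT, 2 Tet2 KO), and STAR, RSEM and mm10 are named in the submitters' processing notes. Their versions, annotation and strand setting: not given in the sources used here. Its unit was read from the values, since every column sums to the same fixed total. TPM keep no depth, so no counting interval was given. Entries of 92 ERCC spike-ins were left out of the tests, and 27 date-like names were not named. Genes reaching 1 TPM in 2 or more libraries (11837) were put on a log2(TPM + 1) scale, which understates changes at low TPM, and tested in R 4.3.3 by limma 3.58.1 (variance trend, no block, Benjamini-Hochberg over all kept genes, two-sided). The fit had 2 residual and 3.51 prior degrees of freedom. An exact permutation test of 2 against 2 cannot go below p = 0.333.

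The members, gene lists and named genes were chosen with earlier results of these data known. Named members were 10 fixed genes, the called members of each class (up to 6) and the highest of each class. Alternatives covered scaling (trimmed mean of M values, weighted as for counts, quantile, spike-in, without spike-ins and Rn45s), filters, pseudocounts, variance priors, threshold, length and GC trend, replicate block and leaving out each library. Coordinates, lengths and GC came from GENCODE mouse release M21 on GRCm38, which matched 67 of 68 members and 97.4% of kept genes. The limma step was tested on simulated data. The labels do not say that replicate numbers pair the libraries, so the main fit did not use them as pairs. Deviations of same-numbered libraries from their group means correlated at r = -0.114 across genes.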

Additional observations from a re-analysis of the deposited data

How the results depend on the processing

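Across the alternatives the enzyme genes called higher numbered 13 as deposited, 2 with spike-in scaling, 8 with the length and GC trend removed, 5 at an adjusted p under 0.01, and 3 to 15 when each library was left out. Those called lower numbered 2 as deposited, 1 without the low-value filter, without the variance trend and at an adjusted p under 0.01, and 0 to 3 when each library was left out. Without Tet2 KO replicate 1, where 0 members were lower, 3 were higher. All kept genes called higher numbered 2237 as deposited, 631 with spike-in scaling, 839 at an adjusted p under 0.01 and 628 to 2190 when each library was left out. All kept genes called lower numbered 1369 as deposited, 666 at an adjusted p under 0.01 and 602 to 1065 when each library was left out. Why these counts differed was not tested. Every fit without a library had fewer degrees of freedom, whichever library was left out.

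With the replicate block 13 enzyme genes were called higher and 2 lower, and over all genes 1888 and 1183. Kmt2a lost its call under that pairing (adjusted p = 0.077) and Kdm6a gained one (adjusted p = 0.044), and no other named enzyme changed its call. Of the named partners, Wdr5, Mtf2, Whsc1, Kat6a and Kat7 lost theirs (adjusted p from 0.057 to 0.078). The crossed pairing, chosen after seeing the data, also gave 13 and 2 enzyme genes, and 2136 and 1327 over all genes.

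No called enzyme or named partner changed sign under any alternative. Uncalled named enzymes did so with spike-in scaling: Setd2 (-0.0133), Ehmt2 (-0.0092), Setdb1 (-0.0109), Kdm4a (-0.0307), Kdm6b (-0.0834), Prmt1 (-0.0274), Prmt5 (-0.0059), Hdac1 (-0.0625) and Setd3 (-0.0115). Setd2 also did with the length and GC trend removed (-0.0309) and Kdm6b with trimmed-mean scaling (-0.0143). Leaving out each library gave -0.0402 to 0.1013 for Kdm6b and -0.0833 to 0.0425 for Sirt1. The cause was not tested. With 2 libraries a group and unknown depth, changes of the size seen in most members lie close to what these libraries can separate.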
